A study of Mus musculus with 3 samples.

Results

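The 10 genes *Sirpa*, *Cd47*, *Mertk*, *Axl*, *Gas6*, *Pros1*, *Siglecg*, *Cd24a*, *Lilrb4a* and *Pirb* encode receptors that let phagocytes take up dying cells or hold them back, together with the ligands of these receptors. They were taken by symbol from the 31053 genes of the deposited matrices, all 10 were found, and their unique molecular identifiers (UMIs, each a single captured transcript) were counted by cell class and library in brains of tumor-bearing mice. Each class was set by UMIs of lineage marker genes, among which none of the 10 was included.

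A phagocyte recognizes a dying cell by phosphatidylserine on the cell surface. The secreted proteins Gas6 and protein S (*Pros1*) bridge this lipid to the receptor tyrosine kinases Mertk and Axl, which start engulfment. Healthy cells carry signals with the opposite effect: Cd47 binds Sirpa on the phagocyte, and Cd24 is a ligand of sialic acid-binding lectins, the family to which Siglec-G (*Siglecg*) belongs. Pirb, a receptor for major histocompatibility complex (MHC) class I molecules, and the leukocyte immunoglobulin-like receptor Lilrb4a carry inhibitory cytoplasmic motifs of the same kind as Sirpa.

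The tumors were grown in female C57BL/6 mice, aged 6 to 8 weeks, by intracranial implantation of brain tumor-initiating cells (BTICs) that came from NPcis mice, which bear mutations in *Nf1* and *Trp53*. One group received niacin, a B vitamin, at 100 mg/kg by daily intraperitoneal injection from day 7, and the other received saline vehicle. Tissue was taken 4 weeks after implantation, pooled over 4 brains per sample according to the labels (5 vehicle and 10 niacin mice in all), enriched on Percoll and sorted for live cells. The 3 libraries analysed here are 1 vehicle library, labelled control replicate 2, and niacin replicates 1 and 2, so that the vehicle group has no replicate and no treatment effect could be tested.

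The vehicle library and niacin replicates 1 and 2 held 8301228, 9373321 and 10359526 UMIs in 2270, 2145 and 2532 barcodes. Of 5571 distinct barcodes, 924 occurred in more than 1 library and 452 in all 3, and each was kept only in the library where it had the most UMIs. After filters on detected genes and mitochondrial UMIs, 1324, 1421 and 1600 cells were used, with medians of 2982.5, 5063 and 5210.5 UMIs. Microglia-like cells numbered 438, 851 and 990 in the vehicle library and the 2 niacin libraries, monocyte/macrophage-like cells 324, 79 and 75, neutrophil-like cells 77, 60 and 49, T cell-like cells 195, 128 and 145, B cell-like cells 20, 32 and 46, and choroid plexus-like cells 36, 121 and 122. These 6 classes entered the tests. No class had a marker of another class among its 10 leading genes. As marker UMIs set the classes, this was no independent check of purity. The 15 monocyte and macrophage markers summed to 4850, 8233 and 8240 CPM (defined below) in neutrophil-like cells, in the same library order. They summed to 1729, 1569 and 1666 CPM in T cell-like and 330, 53.4 and 53.2 CPM in microglia-like cells. In B cell-like and choroid plexus-like cells they stayed at or below 1028 CPM. When the classes were set, *Ccr2*, *Itga4*, *Plac8* and *Ly6c2* among these markers were treated as genes that lymphocytes also express. The source of the summed marker UMIs was not tested. No cell met the rule for endothelial, astrocyte or neural stem, or neuron-like cells, so the levels below describe immune and choroid plexus-like cells and not tumor cells.

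The promoters of *Mertk* and *Pirb* (RefSeq, GRCm38.p6) are shown because these genes took opposite sides among the myeloid classes below. Each sequence is the 250 bases before the gene's start, 5′ to 3′ on the gene's strand. Capitals mark GAGGAA on either strand (TTCCTC in reverse), the core recognized by PU.1, a transcription factor of myeloid cells and B cells.
Mertk, chr2:128698665-128698914, plus strand: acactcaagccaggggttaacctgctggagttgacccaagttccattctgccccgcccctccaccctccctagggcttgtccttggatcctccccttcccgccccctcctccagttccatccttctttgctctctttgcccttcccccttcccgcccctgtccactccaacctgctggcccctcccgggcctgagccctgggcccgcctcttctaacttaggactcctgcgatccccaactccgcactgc
Pirb, chr7:3720383-3720632, minus strand: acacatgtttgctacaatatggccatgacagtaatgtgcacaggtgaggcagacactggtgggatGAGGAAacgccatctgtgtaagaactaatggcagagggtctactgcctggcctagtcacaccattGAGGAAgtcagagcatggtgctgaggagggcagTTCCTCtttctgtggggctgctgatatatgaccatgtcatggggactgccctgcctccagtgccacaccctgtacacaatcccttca
In windows of 300 bases, which add the 50 bases after the start, *Pirb* held 3 matches, *Axl* 1 and *Siglecg* 2 in one of its promoters. Those of *Mertk*, *Gas6*, *Cd47* and *Pros1* held 0. This motif occurs in 9289 of 32851 such mouse promoters (28.28%). Of the 7 genes with a promoter sequence, 3 carried it in at least 1 promoter. The first share counts promoters and the second counts genes, of which *Cd47* and *Siglecg* had more than 1 promoter, so the 2 are not directly comparable.

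Levels are given as UMIs per 1000000 UMIs of the class in that library (CPM), in the order vehicle, niacin replicate 1, niacin replicate 2, and means ± SD run over these 3 libraries of both treatments. Differences between classes are log2 fold changes from edgeR's quasi-likelihood test on the summed counts of 6 classes in 3 libraries. Counts were scaled by trimmed mean of M-values (TMM), with the library as a block and Benjamini-Hochberg adjustment over 9913 genes. The test gives no standard error (SE). Each SE here is an approximation, the size of the fold change divided by the square root of the test's F statistic. All 10 genes passed the filter on low counts. Over all 15 pairs of classes, 106 of the 150 tests of the 10 genes had an adjusted p under 0.05, where 11.5% to 65.0% of all genes passed in each pair. Choroid plexus-like cells differed from microglia-like cells in 10 of the 10 genes (65.0% of all genes passed), from monocyte/macrophage-like cells in 10 (61.4%), from neutrophil-like cells in 8 (60.0%), from B cell-like cells in 5 (51.2%) and from T cell-like cells in 3 (60.1%). T cell-like cells differed from microglia-like and from monocyte/macrophage-like cells in 9 each (46.4% and 35.0%) and from neutrophil-like cells in 6 (43.2%), and B cell-like cells differed from microglia-like cells in 8 (31.9%), from monocyte/macrophage-like cells in 7 (22.5%) and from neutrophil-like cells in 4 (33.8%). Reads do not tell fewer expressing cells from less RNA per cell in these sums.

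**Figure D1:**
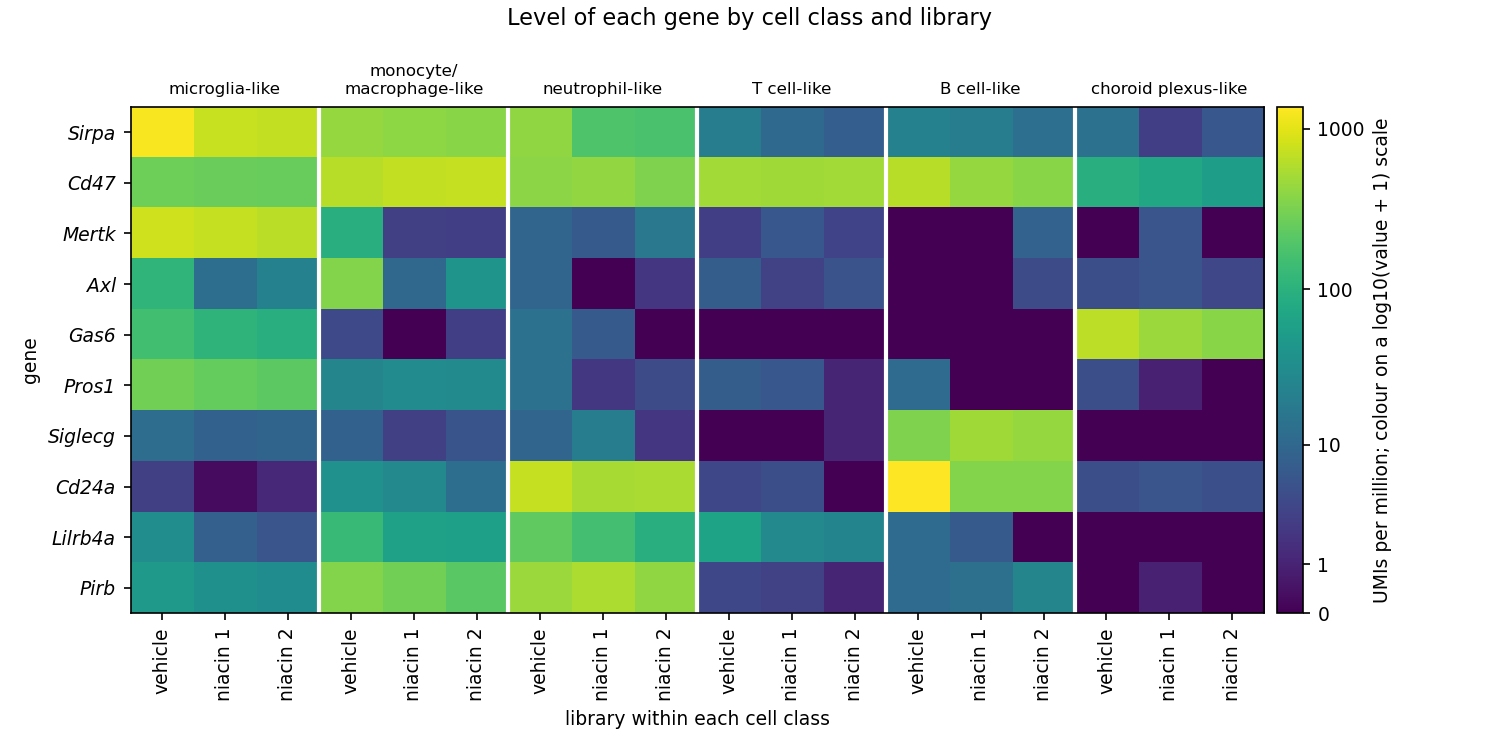
Heat map of the CPM of each of the 10 genes (rows) in 6 cell classes, each with its vehicle, niacin replicate 1 and niacin replicate 2 library (columns), colored on a log10(value + 1) scale. *Mertk*, *Pros1* and *Sirpa* are brightest in microglia-like cells, *Pirb* and *Lilrb4a* in neutrophil-like and monocyte/macrophage-like cells, *Siglecg* in B cell-like cells and *Gas6* in choroid plexus-like cells.

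Among the engulfment receptors, *Mertk* was almost confined to microglia-like cells, which held 88.2%, 98.7% and 97.4% of its UMIs in the vehicle library and the 2 niacin libraries. Its level there was 799, 721 and 639 CPM (mean 719 ± 80.1, n = 3). In monocyte/macrophage-like cells it was 91.1 CPM in the vehicle library (208 UMIs), but 2.90 and 2.76 CPM in the niacin libraries, which rest on 2 UMIs each. The 2 classes did not overlap in any library, and *Mertk* was higher in microglia-like cells by 4.53 on the log2 scale (SE 0.63, adjusted p = 4.01e-06). Against neutrophil-like cells, at 9.57, 6.69 and 16.9 CPM, the difference was 5.16 (SE 0.76, adjusted p = 8.18e-06). T cell-like, B cell-like and choroid plexus-like cells stayed at or below 8.68 CPM in every library. Monocyte/macrophage-like and neutrophil-like cells could not be ordered, since their difference of 0.63 (adjusted p = 0.650) became −3.00 (adjusted p = 0.00305) without the vehicle library and 6.28 (adjusted p = 0.0407) in cells thinned to 2000 UMIs.

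At the level of single cells, thinned to 2000 UMIs each, *Mertk* was detected in 77.6% (95% exact binomial interval 72.3 to 82.3) of microglia-like cells of the vehicle library, 71.5% (67.9 to 74.9) in niacin replicate 1 and 63.7% (59.9 to 67.4) in niacin replicate 2. T cell-like cells, which are not expected to express it, showed 0.690%, 0% (0 of 83 cells, with an exact upper bound of 4.35%) and 0.820%. Thinning left out 152, 188 and 337 microglia-like cells with fewer UMIs, and the median depth before thinning of those kept was 7568, 6072 and 6441 UMIs, against 6260, 7134 and 6941 in T cell-like cells. Without thinning the shares in microglia-like cells were 83.1%, 84.5% and 79.9%, over cells of unequal depth.

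*Axl*, the second receptor for Gas6, had a different distribution, and in microglia-like cells it varied more between libraries than *Mertk*. In monocyte/macrophage-like cells it reached 355 CPM in the vehicle library (810 UMIs in 154 of 324 cells), against 10.2 CPM (7 UMIs) and 41.5 CPM (30 UMIs) in the niacin libraries. Microglia-like cells had 112, 12.5 and 22.6 CPM. The vehicle library was thus the highest in both classes, and the order of the classes was not the same in all libraries: microglia-like cells were lower in 2 of 3. Over the 3 libraries *Axl* was lower in microglia-like than in monocyte/macrophage-like cells by a log2 change of −1.30 (SE 0.40, adjusted p = 0.0106). That call rested on the vehicle library, without which the change was −0.58 (adjusted p = 0.215), and was also lost without niacin replicate 2 (−1.33, adjusted p = 0.0849), without the library block (−1.75, adjusted p = 0.0852) and with DESeq2 (−1.21, adjusted p = 0.196). Neutrophil-like cells held 2, 0 and 1 *Axl* UMIs; both other myeloid classes exceeded them, by 3.21 (SE 0.90, adjusted p = 0.00538) and 4.51 (SE 0.82, adjusted p = 0.000227), the first of which did not pass without the block (adjusted p = 0.0864).

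How often the 2 receptors were found in the same cells differed between monocyte/macrophage-like and microglia-like cells. In the vehicle library, 20.5% of the monocyte/macrophage-like cells with an *Axl* UMI also had a *Mertk* UMI at 2000 UMIs per cell, against 6.48% of those without *Axl*. In microglia-like cells the direction was the opposite: *Mertk* was detected in 68.4%, 42.9% and 36.8% of cells with *Axl*, and in 79.0%, 72.1% and 64.5% of cells without it. These shares are descriptions over cells of single libraries, with 38, 14 and 19 microglia-like cells carrying *Axl*.

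The bridging ligands were split between classes. *Pros1* followed *Mertk*: microglia-like cells held 87.6%, 96.5% and 95.7% of its UMIs and had 292, 247 and 220 CPM (mean 253 ± 36.3, n = 3), with 25.9, 31.9 and 30.4 CPM in monocyte/macrophage-like cells. The difference was 3.0 (SE 0.29, adjusted p = 2.39e-08) against that class and 4.69 against neutrophil-like cells. Monocyte/macrophage-like cells exceeded neutrophil-like cells by 1.70 (SE 0.56, adjusted p = 0.0245), a call lost in 7 alternatives, among them DESeq2 (adjusted p = 0.0690) and leaving out niacin replicate 1 (1.27, adjusted p = 0.258). Neutrophil-like cells held 3, 1 and 2 *Pros1* UMIs.

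*Gas6* was highest in choroid plexus-like cells, the epithelium that produces cerebrospinal fluid, at 665, 454 and 382 CPM (mean 500.1 ± 147, n = 3). Microglia-like cells came next with 154, 107 and 91.8 CPM, below choroid plexus-like cells in every library, with a log2 change of −2.64 (SE 0.29, adjusted p = 2.31e-07). As microglia-like cells were more numerous, they held 66.7%, 46.8% and 55.1% of all *Gas6* UMIs and choroid plexus-like cells 25.4%, 50.2% and 40.9%. Monocyte/macrophage-like cells had 9, 0 and 2 *Gas6* UMIs and were lower than microglia-like cells (log2 difference 5.25, SE 0.44, adjusted p = 2.10e-08), and T cell-like and B cell-like cells had 0 in every library, where 3 UMIs would be at most 4.62 CPM in the first and 34.7 CPM in the second. The larger share of *Gas6* was thus in microglia-like cells, which also held *Mertk* and *Pros1*, in the vehicle library and niacin replicate 2, and in choroid plexus-like cells in niacin replicate 1.

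**Figure D2:**
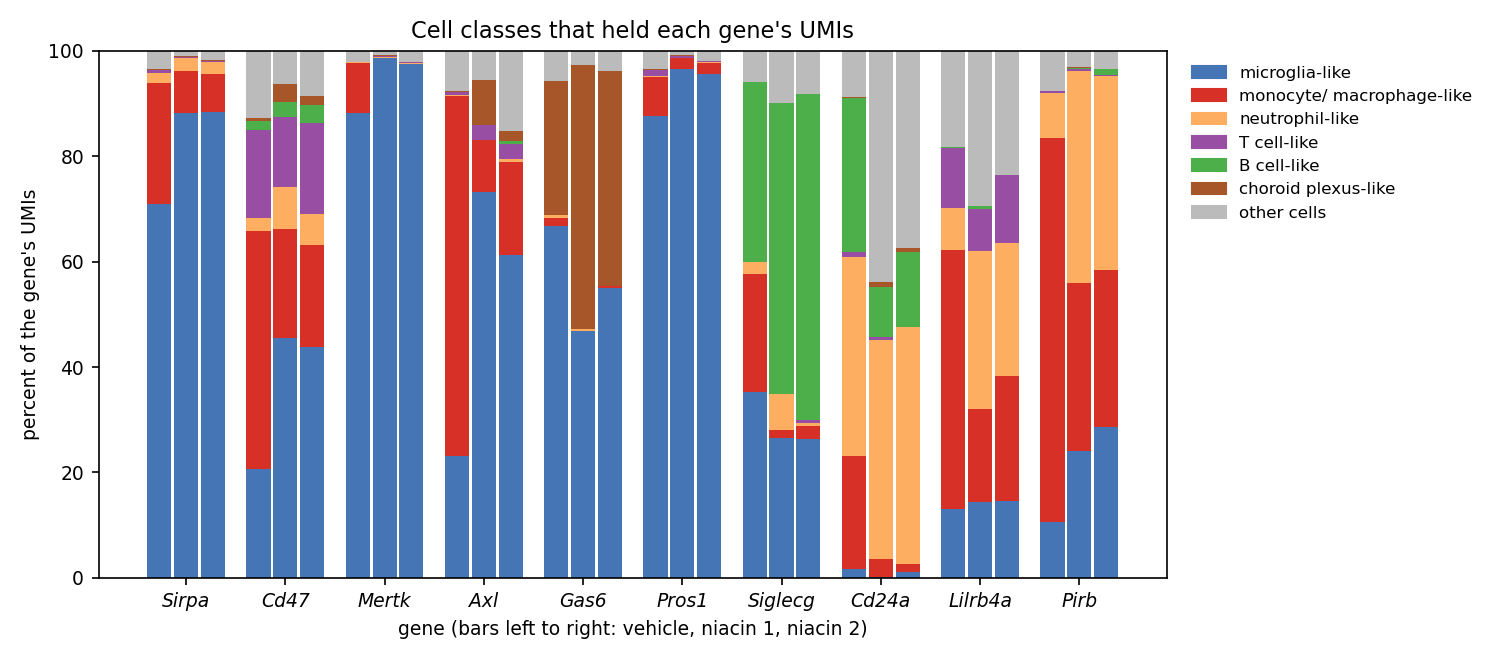
Stacked bars of the percent of each gene's UMIs held by each cell class, with 3 bars per gene for the vehicle library, niacin replicate 1 and niacin replicate 2, and gray for all other cells. *Mertk* and *Pros1* are nearly all from microglia-like cells in each library, whereas the largest share of *Axl* passes from monocyte/macrophage-like cells (68.4%) in the vehicle library to microglia-like cells (73.2% and 61.2%) in the niacin libraries. The niacin libraries had fewer monocyte/macrophage-like cells, and the *Axl* level of that class was also lower there (10.2 and 41.5 CPM, against 355). The part of each in the shift was not tested.

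Of the Cd47–Sirpa axis, the receptor was myeloid and the ligand was broad. *Sirpa* was highest in microglia-like cells, with 1267, 737 and 709 CPM (mean 904 ± 314, n = 3). Monocyte/macrophage-like cells had 434, 401 and 377 CPM, and neutrophil-like cells 416, 187 and 169 CPM. Microglia-like cells were above both in every library, by 0.97 (SE 0.21, adjusted p = 0.000797) and 1.12 (SE 0.22, adjusted p = 0.000264). The difference of 0.15 between monocyte/macrophage-like and neutrophil-like cells had an adjusted p of 0.973, but was 0.79 with an adjusted p of 0.0181 when counts were scaled to class totals, so their order depends on the scaling. T cell-like cells, at 19.7, 10.8 and 7.59 CPM, and B cell-like and choroid plexus-like cells, at no more than 23.1 CPM, were lower than each myeloid class.

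*Cd47*, the don't-eat-me ligand of Sirpa, was lower in microglia-like cells than in the other 4 immune classes tested. Microglia-like cells had 273, 258 and 254 CPM and monocyte/macrophage-like cells 631, 710 and 714 CPM, with no overlap and a log2 change of −1.53 (SE 0.23, adjusted p = 9.02e-06). T cell-like cells had 499, 482 and 502 CPM and B cell-like cells 624, 434 and 382 CPM, and microglia-like cells were below them by −1.02 (adjusted p = 0.000597) and −0.91 (adjusted p = 0.00433). The class with the highest mean (monocyte/macrophage-like, 685 ± 46.9) was not separated from T cell-like cells (494 ± 10.9, log2 difference 0.51, SE 0.22, adjusted p = 0.0835), B cell-like cells (480 ± 127, 0.62, SE 0.23, adjusted p = 0.0631) or neutrophil-like cells (380 ± 40.9, 0.19, adjusted p = 0.558). The last pair did not overlap in CPM in any library, and it passed at 0.86 (adjusted p = 0.0055) when scaled to class totals, 1.0 (adjusted p = 0.00416) without shared barcodes and 0.88 (adjusted p = 0.0451) in thinned cells. Neutrophil-like cells were above microglia-like cells by 1.34 with TMM (change −1.34, adjusted p = 5.41e-05), but the change was −0.53 (adjusted p = 0.0571) when scaled to class totals and −0.68 (adjusted p = 0.0933) in cells thinned to 2000 UMIs, so that this call depends on the scaling. Choroid plexus-like cells had 93.7, 75.1 and 55.9 CPM, below all 5 immune classes. In natural killer cell-like cells, which were too few to enter the tests, *Cd47* was at 812, 961 and 492 CPM.

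The second checkpoint pair was found mostly outside microglia. *Siglecg*, an inhibitory receptor of B cells, reached 335, 488 and 430 CPM in B cell-like cells (29, 73 and 99 UMIs), while microglia-like cells had 12.4, 8.42 and 9.12 CPM and T cell-like cells 0, 0 and 1 UMI. It was higher in B cell-like than in T cell-like cells by 9.75 (SE 0.64, adjusted p = 1.06e-09). Because microglia-like cells were many, they still held 35.3%, 26.5% and 26.3% of all *Siglecg* UMIs. The 3 myeloid classes were not separated in the test of all libraries: the difference was 0.41 (SE 0.47, adjusted p = 0.515) between microglia-like and monocyte/macrophage-like cells, and −0.94 (adjusted p = 0.220) between microglia-like and neutrophil-like cells. Between monocyte/macrophage-like and neutrophil-like cells it was −1.35 (SE 0.69, adjusted p = 0.146), which passed without the vehicle library (−2.30, adjusted p = 0.0222).

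*Cd24a*, whose product is a ligand of Siglec-G, was highest in neutrophil-like and B cell-like cells and almost absent from microglia-like cells. Neutrophil-like cells had 727, 531 and 543 CPM. B cell-like cells had 1363, 361 and 352 CPM, but in the vehicle library the 118 UMIs came from 9 of 20 cells, with 39.8% of them in a single cell. The 2 classes were not separated (0.82, SE 0.36, adjusted p = 0.0857). In microglia-like cells 7, 1 and 6 UMIs were counted (2.88, 0.240 and 1.30 CPM), lower than in neutrophil-like cells by a log2 change of −9.56 (SE 0.53, adjusted p = 4.19e-12) and than in monocyte/macrophage-like cells by −4.32 (SE 0.53, adjusted p = 7.41e-07). Erythroid-like cells, of which there were 3, 37 and 34, also carried *Cd24a*, at 291, 344 and 297 CPM, and held 38.2% and 31.5% of its UMIs in the niacin libraries.

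The inhibitory receptors *Pirb* and *Lilrb4a* were, among the tested classes, both highest in neutrophil-like cells, intermediate in monocyte/macrophage-like cells and low in microglia-like cells. *Pirb* was at 454, 560 and 406 CPM in neutrophil-like cells, 354, 290 and 214 CPM in monocyte/macrophage-like cells, and 48.2, 36.1 and 32.3 CPM in microglia-like cells. This order was the same in every library, and all 3 differences passed the test, at −1.41 (SE 0.28, adjusted p = 0.000574) for monocyte/macrophage-like against neutrophil-like cells, −3.03 (SE 0.29, adjusted p = 2.55e-08) for microglia-like against monocyte/macrophage-like cells, and −4.44 (SE 0.31, adjusted p = 1.63e-10) for microglia-like against neutrophil-like cells. The first of these missed the threshold without niacin replicate 1 (−1.17, adjusted p = 0.0536). *Pirb* was not separated between microglia-like and B cell-like cells (0.86, SE 0.51, adjusted p = 0.226), which held 1, 2 and 6 UMIs.

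*Lilrb4a* was at 234, 158 and 95.2 CPM in neutrophil-like cells, 133, 61.0 and 58.0 CPM in monocyte/macrophage-like cells, 65.7, 29.2 and 24.9 CPM in T cell-like cells and 33.4, 8.18 and 5.64 CPM in microglia-like cells. The vehicle library was highest in each of these classes, and each library gave the same order. Monocyte/macrophage-like cells were below neutrophil-like cells by −1.65 (SE 0.33, adjusted p = 0.000638) and above T cell-like cells by 1.14 (SE 0.34, adjusted p = 0.0117), and microglia-like cells were below monocyte/macrophage-like cells by −2.78 (SE 0.33, adjusted p = 8.54e-07). Basophil- and mast cell-like cells, 4, 31 and 36 in number, had 530.0, 357 and 218 CPM, from 8, 40 and 26 UMIs. Its level is uncertain, because 580 of the 694 windows of 91 bases in the last 500 bases of its transcripts (83.6%) are also found in another annotated gene, *Gm49339* or *Lilr4b*. Reads from such windows cannot be assigned to 1 gene. The other 9 genes had 0 such windows in their last 500 bases. Of the windows of *Pira2*, a relative of *Pirb*, 33.2% are also found in *Pirb* transcripts, outside the bases searched for *Pirb*. *Lilr4b* itself had 636, 379 and 300.2 CPM in neutrophil-like cells and 275, 47.9 and 91.2 CPM in monocyte/macrophage-like cells.

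Counted by comparison, 9 of the 10 genes passed between microglia-like and monocyte/macrophage-like cells (4 higher and 5 lower in microglia-like cells, all but *Siglecg*), where 44.6% of all genes did (22.7% higher and 21.9% lower). Between microglia-like and neutrophil-like cells 9 of 10 passed (5 higher, 4 lower), against 48.3% of all genes (29.5% higher, 18.8% lower), and between monocyte/macrophage-like and neutrophil-like cells 5 of 10 (2 higher, 3 lower), against 31.4% (19.1% higher, 12.3% lower). Between B cell-like and T cell-like cells 4 of 10 passed, against 11.5% (5.57% higher, 5.93% lower): *Siglecg*, *Cd24a* (7.80, SE 0.57, adjusted p = 1.25e-09) and *Pirb* (2.86, SE 0.76, adjusted p = 0.0144) were higher and *Lilrb4a* (−2.99, SE 0.86, adjusted p = 0.0252) lower in B cell-like cells. The last 2 rest on few UMIs, and both missed the threshold without niacin replicate 2 (adjusted p = 0.485 and 0.139). The median log2 fold change of the 10 genes was −0.45, 0.09, −0.60 and 0.23 in the 4 comparisons in this order, beside 0.09, 0.49, 0.31 and −0.11 over all genes tested. Scaling to class totals moved the median of all genes against neutrophil-like cells to 1.27 and 0.94, and with it the share of higher genes among those that passed from 61.1% to 83.0% for microglia-like and from 60.9% to 85.1% for monocyte/macrophage-like cells. With relative log expression the latter share was 49.1%, and for microglia-like against monocyte/macrophage-like cells it moved from 51.0% to 60.1% by class totals.

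**Figure D3:**
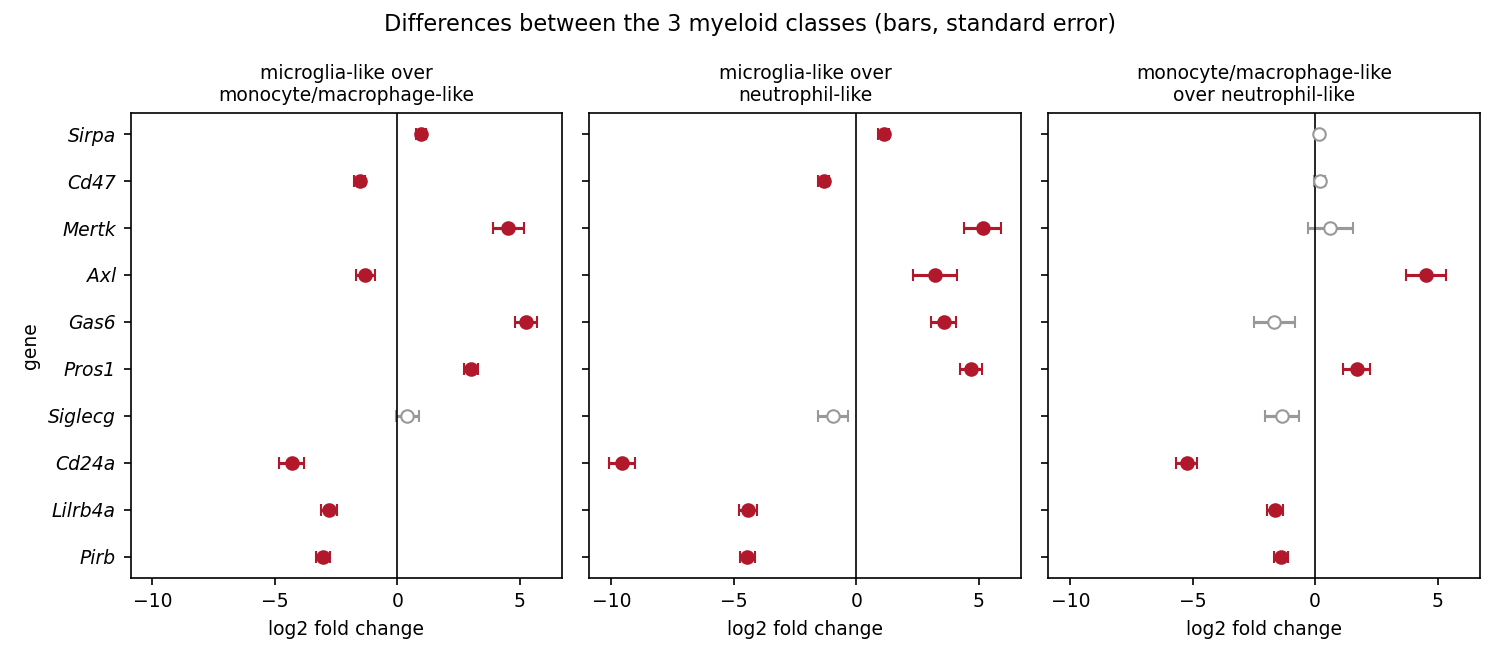
Log2 fold change of each of the 10 genes between pairs of myeloid classes (edgeR, TMM scaling, 3 libraries), with bars of 1 standard error, filled red where the adjusted p was under 0.05 and open where it was not. No bar is drawn for *Sirpa* in the right panel, where no standard error was available. *Mertk*, *Gas6* and *Pros1* lie far to the microglia side in the left panel (4.53, 5.25 and 3.0), while *Cd24a*, *Lilrb4a* and *Pirb* lie on the opposite side (−4.32, −2.78 and −3.03).

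Genes with related roles were found on both sides of the same comparison. All genes tested were split in the same way, with 22.7% higher and 21.9% lower in microglia-like than in monocyte/macrophage-like cells. Of 12 tested genes for other phosphatidylserine receptors and bridges, 5 were higher and 4 lower in microglia-like than in monocyte/macrophage-like cells. *Trem2*, a lipid receptor of microglia (4.24), *Stab1*, a scavenger receptor that binds phosphatidylserine (3.60), and *Itgb5*, an integrin chain (3.06), were higher. *Cd300lb* (−6.22) and the scavenger receptors *Cd36* (−4.97) and *Scarb1* (−2.57) were lower. Of 16 genes of the engulfment machinery, 4 were higher, among them the lipid transporter *Abca1* (3.12) and *Elmo1*, which activates Rac with a Dock partner (1.69), and 5 lower, among them *Vav3* (−6.27) and the GTPase *Rac2* (−1.47).

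Further inhibitory receptors were also divided, with 5 of 16 higher in microglia-like cells, led by *Cd33* (3.23), *Pdcd1* (2.66) and *Cd72* (1.81), and 6 lower, led by *Cd300ld* (−5.92), which is listed here although it lacks an inhibitory motif, *Clec12a* (−4.47) and *Lilr4b* (−3.65). Of 14 ligands and enzymes of such checkpoints, 1 was higher, *Qpctl* (1.21), whose enzyme modifies Cd47 to the form that Sirpa binds, and 8 were lower. The lower genes were led by *Fn1* (−6.27) and *Thbs1* (−3.51), which were themselves markers used to set the monocyte/macrophage-like class, followed by *Cd274* (−2.66), the ligand of Pdcd1. Among 12 genes of inhibitory signaling, the lipid phosphatase *Inpp5d* (1.41) was higher in microglia-like cells and 7 were lower, including *Dok2* (−4.82) and *Ptpn11* (−1.53), a phosphatase recruited by Sirpa. The *Sirpa* relatives *Sirpb1c* (−8.67), *Sirpb1a* (−8.66) and *Sirpb1b* (−7.62), which lack inhibitory motifs, were lower in microglia-like cells, opposite to *Sirpa*; 37.9%, 40.8% and 55.8% of their 3′ windows are found in one another, so their values are not separate. The medians of these lists were 0.42, −0.46, 0.05, −1.23 and −0.73, beside 0.09 over all genes, of which 22.7% were higher and 21.9% lower.

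Against neutrophil-like cells, 7 of the 12 other phosphatidylserine receptors and bridges were higher in microglia-like cells, led by *Mfge8* (6.94), a bridge of phosphatidylserine to integrins, and 2 were lower, *Cd300lb* (−7.86) and *Cd300lf* (−4.85). Of all genes, 29.5% were higher and 18.8% lower in this comparison. Between monocyte/macrophage-like and neutrophil-like cells, 19.1% of all genes were higher in the first and 12.3% lower. Monocyte/macrophage-like cells exceeded neutrophil-like cells in 8 of these 12, with *Cd36* (7.12), *Mfge8* (6.44) and *Lrp1* (3.88) in front, and were lower in 2, with *Cd300lf* (−2.56) lower in every library. Of the 14 checkpoint ligands and enzymes 7 were higher in monocyte/macrophage-like cells, with *Apoe* (4.10) and *Qpct* (3.78) after the class marker *Fn1* (8.32), and 2 were lower, with *Cd52* (−1.32) lower in every library. Between B cell-like and T cell-like cells, 4 of 16 inhibitory receptors were higher in B cell-like cells, led by *Cd22* (8.56), *Cd72* (4.51) and the Fc receptor *Fcgr2b* (3.94). Another 4 were lower, led by *Cd5* (−10.13), itself a T cell marker here, *Pdcd1* (−8.19) and *Cd200r1* (−8.00). Of all genes, 5.57% were higher and 5.93% lower in B cell-like cells. *Ptpn6*, the phosphatase through which many of these receptors act, was higher in B cell-like cells (2.22).

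Activated microglia-like cells were compared with the others to see whether the 10 genes followed activation. Cells thinned to 2000 UMIs were called activated with at least 1 UMI of 6 marker genes (*Cst7*, *Ch25h*, *Cxcl13*, *Itgax*, *Lpl* and *Spp1*), which gave 54, 35 and 52 activated and 232, 628 and 601 other cells. This class is a range rather than a type, since 35, 28 and 41 of the activated cells sat at the cut. *Axl* was at 259, 85.7 and 28.9 CPM in activated cells and at 60.3, 7.96 and 15.0 CPM in the others, from 28, 6 and 3 UMIs in the activated cells. It was higher in every library and was the only one of 7 tested genes to pass (2.14, SE 0.41, adjusted p = 0.0209), in a comparison where 1.90% of 4836 genes passed. The call was lost with a cut of 2 marker UMIs (1.89, adjusted p = 0.0647), without the block (2.61, adjusted p = 0.405) and without the vehicle library (2.15, adjusted p = 0.608), and DESeq2 gave no adjusted p. *Mertk* (−0.29, SE 0.14, adjusted p = 0.397) and *Sirpa* (−0.30, SE 0.13, adjusted p = 0.363) were lower in activated cells in 3 of 3 libraries without passing, and *Gas6* was higher in 3 of 3 without passing (0.51, SE 0.24, adjusted p = 0.386). *Siglecg*, *Cd24a* and *Lilrb4a* had too few UMIs to be tested. Of the other lists, *Apoe* (2.14), *Cd52* (1.26), *B2m* (0.78) and *Tyrobp*, the signaling adaptor of activating receptors such as Trem2 (0.45), rose, and *Inpp5d* fell by 0.78.

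With 1 vehicle library, niacin and vehicle were compared within classes as ratios of summed counts, with 95% intervals for counting error only. Of 26 combinations of gene and class with at least 10 UMIs in each library, 6 were at least 2-fold lower in niacin and 0 at least 2-fold higher. Among all genes, 4.39% were at least 2-fold lower in microglia-like cells, 7.74% in monocyte/macrophage-like, 35.1% in neutrophil-like, 7.33% in T cell-like, 16.9% in B cell-like and 25.1% in choroid plexus-like cells. The shares at least 2-fold higher were, in the same order, 1.65%, 9.57%, 1.56%, 2.95%, 5.80% and 1.66%.

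In microglia-like cells *Axl* had the largest ratio of the 9 genes with enough UMIs, at a log2 of −2.68 (95% interval −2.96 to −2.40), with −3.17 and −2.32 for the 2 niacin libraries taken singly. The middle 90% of all genes in this class lay between −0.94 and 0.71. The share of microglia-like cells with an *Axl* UMI at 2000 UMIs was 13.3% (9.58 to 17.8), 2.11% (1.16 to 3.52) and 2.91% (1.76 to 4.51), beside 0.690%, 0% and 0.820% in T cell-like cells, and without thinning it was 20.1%, 3.76% and 6.06%. Markers of monocytes and macrophages moved with it, as the summed level of all 15 of them in microglia-like cells was 330, 53.4 and 53.2 CPM, with none at 0. Natural killer cell markers in microglia-like cells, summed over 10, were at 66.3, 5.29 and 2.82 CPM. Their part in the *Axl* ratio was not tested.

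Other ratios in microglia-like cells were smaller. *Sirpa* was at −0.81 (−0.87 to −0.75), *Gas6* at −0.63 (−0.80 to −0.45), *Pirb* at −0.49 (−0.80 to −0.19), *Pros1* at −0.32 (−0.44 to −0.20) and *Mertk* at −0.23 (−0.31 to −0.16). All of these intervals lie below 0 and inside the middle 90% of all genes. *Cd47* (−0.10, −0.22 to 0.03) and *Siglecg* (−0.50, −1.10 to 0.11) had intervals that include 0. *Lilrb4a*, at −2.27 (−2.75 to −1.79), rests in the vehicle library on 81 UMIs in 24 of 438 cells, 32.1% of them in 1 cell. With the top 5% of doublet scores taken out it was −1.04, and without barcodes found in more than 1 library −1.32.

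*Lilrb4a* was also lower in niacin in monocyte/macrophage-like cells (−1.16, −1.51 to −0.81), T cell-like cells (−1.28, −1.84 to −0.72) and neutrophil-like cells (−0.89, −1.37 to −0.40). In neutrophil-like cells this ratio was close to the median of all genes (−0.74) and moved to −0.17 without shared barcodes. *Sirpa* in neutrophil-like cells was at −1.22 (−1.60 to −0.85), and at −0.49 without shared barcodes. The median depth of neutrophil-like cells was 1771 UMIs in the vehicle library against 4832.5 and 7082 in the niacin libraries, and its part in these ratios was not tested.

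**Figure D4:**
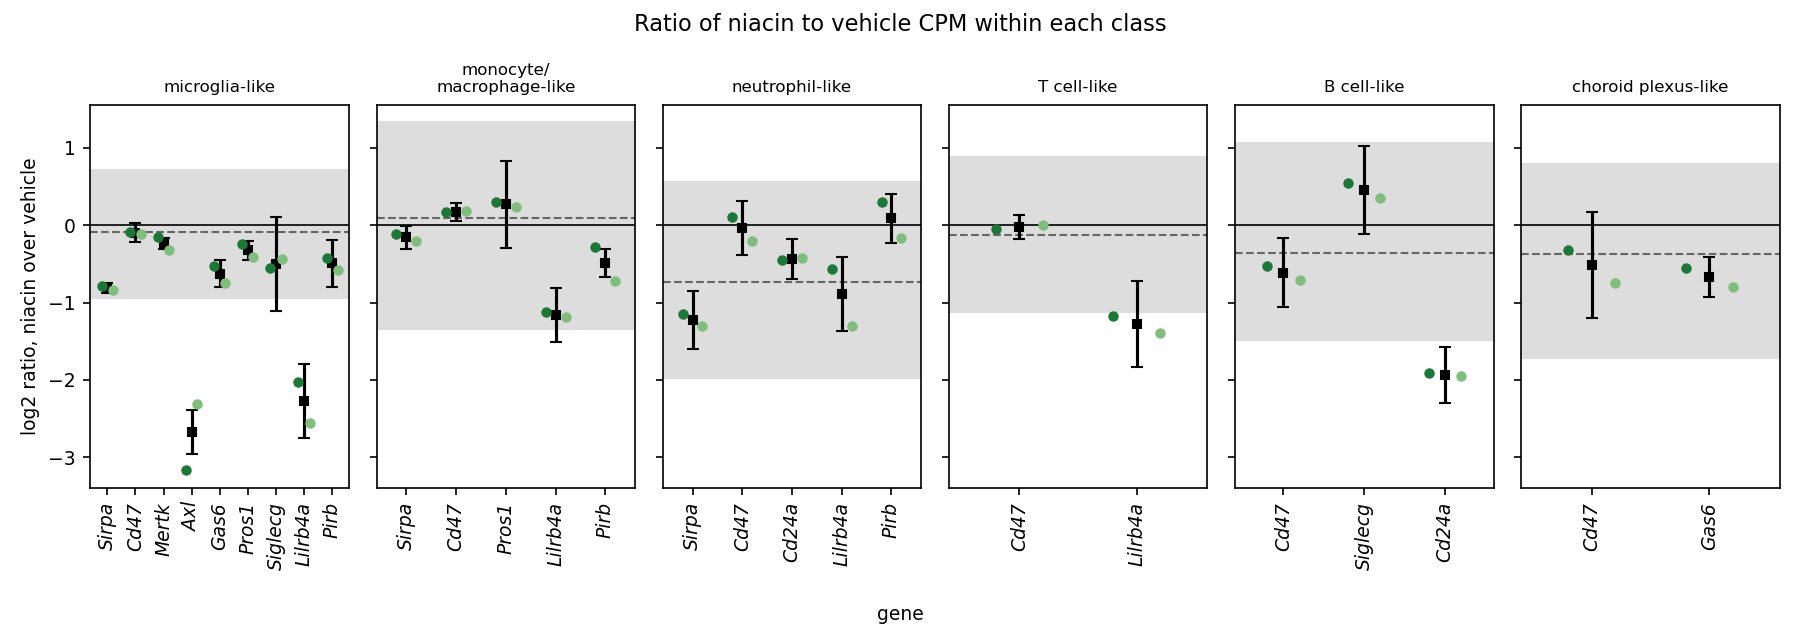
Log2 ratio of niacin to vehicle CPM for each gene with at least 10 UMIs in every library, by class. Black squares with bars are both niacin libraries together with the 95% counting interval, dark and light green points are niacin replicates 1 and 2, the dashed line is the median and the gray band the middle 90% of all genes of the class. *Axl* (−2.68) and *Lilrb4a* (−2.27) in microglia-like cells lie below the band, as do *Cd24a* in B cell-like cells (−1.94) and *Lilrb4a* in T cell-like cells (−1.28).

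The make-up of the monocyte/macrophage-like class differed between libraries, so its *Axl* and *Mertk* values were also taken by subset. Cells with at least 3 UMIs of the nonclassical monocyte genes *Ear2*, *Ace* and *Treml4* were 24 of 324 in the vehicle library and 60 of 79 and 50 of 75 in the niacin libraries, and cells with at least 2 UMIs of *Arg1*, a marker of tumor-associated macrophages, were 56, 1 and 2. Within the vehicle library *Axl* was at 142 CPM in the nonclassical cells, 346 in the *Arg1* cells and 393 in the remaining 244. Nonclassical cells of the niacin libraries had 10.1 and 8.37 CPM, and the remaining cells, 18 and 23 in number, had 10.9 and 113 CPM. *Axl* was lower in niacin in the nonclassical and in the remaining cells, with values from few cells. The vehicle nonclassical level came from 33 UMIs in 5 of 24 cells, 39.4% of them in 1 cell, and the niacin levels from 5 and 4 UMIs. The remaining cells were not alike between libraries, with the monocyte marker *Ly6c2* at 2357, 575 and 1804 CPM. The part of the class make-up in the *Axl* difference was not tested. *Mertk* was at 21.4, 158 and 75.0 CPM in the 3 vehicle subsets, the first from 5 UMIs of which 80.0% were in 1 cell, and had no UMI in the remaining niacin cells.

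Among nonclassical cells alone the intervals of the other genes included 0, with *Sirpa* at −0.04 (−0.33 to 0.25), *Cd47* at 0.05 (−0.19 to 0.28), *Pirb* at 0.13 (−0.28 to 0.54) and *Lilrb4a* at −0.31 (−1.11 to 0.50). Among the remaining cells, 244 in the vehicle library and 18 and 23 in the niacin libraries, all 4 intervals lay below 0, with *Sirpa* at −1.20 (−1.55 to −0.84), *Cd47* at −0.27 (−0.48 to −0.07), *Pirb* at −0.70 (−1.02 to −0.37) and *Lilrb4a* at −1.29 (−1.90 to −0.69). In the whole class *Cd47* was at 0.17 (0.06 to 0.29), *Pirb* at −0.49 (−0.67 to −0.31) and *Sirpa* at −0.16 (−0.31 to −0.01), the last becoming 0.18 without shared barcodes and 0.19 in thinned cells. In lymphoid classes *Cd47* was at −0.02 (−0.18 to 0.14) in T cell-like and −0.61 (−1.06 to −0.16) in B cell-like cells, and *Siglecg* in B cell-like cells was at 0.45 (−0.12 to 1.02). *Cd24a* in B cell-like cells, at −1.94 (−2.30 to −1.58), was −1.02 without shared barcodes and −0.98 in thinned cells. *Gas6* in choroid plexus-like cells was at −0.67 (−0.93 to −0.41), beside a median of −0.37 for all genes of that class.

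The genes whose pattern over the 18 sums of 6 classes and 3 libraries was most like each of the 10 were found by Pearson's r of log2(CPM + 10), over 6406 genes with a mean of at least 20 CPM that were neither class markers nor among the 10. The points share libraries and classes, so r is a description. *Mertk* was nearest to *Stab1* (0.99), *Cttnbp2nl* (0.99) and *C1qc* (0.98), and *Pros1* to *Arhgap39* (0.98), *Abca9* (0.97) and *Kcnk6* (0.97). *Sirpa* was nearest to *Tnfrsf21* (0.98), *Creg1* (0.97) and *Slc11a1* (0.97), and *Cd47* to *Ptprc* (0.96), *Tagln2* (0.95) and *Msn* (0.95). For *Axl* the values were lower, with *Cxcl16* (0.89), *Sdc3* (0.89) and *Slc39a1* (0.86), as for *Cd24a*, with *Serpinb1a* (0.91), *Lrrk2* (0.86) and *Rnf144a* (0.83). *Gas6* was nearest to *Maged1* (0.98), *Ldhb* (0.97) and *Tspan33* (0.97), *Siglecg* to *Trim7* (0.97), *Gm30211* (0.97) and *Ighd* (0.97), and *Pirb* to *Pilra* (0.97), *Ccl6* (0.96) and *Igsf6* (0.95). *Lilrb4a* was nearest to *Lilr4b* (0.95), with which it shares sequence, *Fas* (0.93) and *Zyx* (0.92). Among the 10 genes themselves r was 0.91 for *Mertk* and *Pros1*, 0.81 for *Sirpa* and *Pros1*, 0.80 for *Pirb* and *Lilrb4a* and −0.91 for *Gas6* and *Cd47*.

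In the genome (GRCm38, GENCODE vM21), the 10 genes lie on 5 chromosomes. *Mertk* (chr2:128698956-128802894) and *Sirpa* (chr2:129592835-129632228) are on chromosome 2, *Cd47* (chr16:49800533-49915010) and *Pros1* (chr16:62854307-62929346) on chromosome 16, all on the plus strand. *Cd24a* (chr10:43578284-43584265) and *Lilrb4a* (chr10:51490956-51496611) are on the plus strand of chromosome 10, the latter next to *Lilr4b* (chr10:51480632-51486703). On chromosome 7 lie *Pirb* (chr7:3711409-3720391, minus), *Axl* (chr7:25757273-25788705, minus) and *Siglecg* (chr7:43408204-43418358, plus), and *Gas6* is on chromosome 8 (chr8:13465374-13494490, minus).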

How the data were processed

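Deposited values were UMI counts per gene and barcode, made by the authors with Cell Ranger 3.1 and STAR on mm10 (per the submitters' processing notes), without further normalization. Cells with at least 200 genes and at most 20% mitochondrial UMIs were kept. A cell was given the class with at least 3 UMIs of at least 2 markers and at least 2 times those of any other of 16 marker lists. Natural killer cell markers did not count in a cell with at least 2 UMIs of T cell markers that natural killer cells lack. In any other cell, T cell markers did not count. The monocyte markers *Ccr2*, *Itga4*, *Plac8* and *Ly6c2* did not count in a cell with at least 3 UMIs of T or natural killer cell markers. Doublets were kept, since Scrublet called too few cells to be useful; cells that met no rule or several stayed unclassed. Counts were summed by class and library, with the library as a block since all classes of a library come from the same pooled brains, and tested with edgeR 4.0.16 (R 4.3.3), and with DESeq2 1.42.0 as an alternative. The niacin replicates were pools from 10 mice. With the library as a block, p-values set a class difference against how much class levels still vary between the pooled libraries. Any difference between treatments that is not shared by all classes is part of that variation. On simulated counts with fold changes of 1 or 2 on the log2 scale, the microglia-like against monocyte/macrophage-like fit recovered 40% and 95%, and the B cell-like against T cell-like fit 11% and 77%. Against neutrophil-like cells, the microglia-like fit recovered 18% and 81%, and the monocyte/macrophage-like fit 17% and 88%. In these simulations both classes started from the fitted levels of 1 of them, with the spread taken from its fitted trend. Only genes with a mean of at least 10 counts per sum were changed, so the rates do not describe genes with fewer UMIs. Intervals cover counting error only. The 10 genes and the gene lists were chosen with earlier results of these data known. From the other lists, at most 3 genes in each direction with the largest change, an adjusted p under 0.05 and 1 direction in all 3 libraries were named. Alternatives covered shared barcodes, filters, class margin, thinning, scaling, the library block and each library left out.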

Additional observations from a re-analysis of the deposited data

Results flagged for a closer look

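*Cd47* had opposite signs in 2 classes: its log2 ratio of niacin to vehicle was 0.17 in monocyte/macrophage-like cells and −0.61 in B cell-like cells, with both niacin libraries on the same side of the vehicle library in each class. With 1 vehicle library the difference between these classes was not tested. Within the monocyte/macrophage-like class *Cd47* was at 0.05 (−0.19 to 0.28) in nonclassical cells, which were 24 of 324 cells in the vehicle library and 60 of 79 and 50 of 75 in the niacin libraries, and at −0.27 (−0.48 to −0.07) in cells that were neither nonclassical nor *Arg1* cells, so that no subset compared had an interval above 0. The median ratio of all genes was 0.10 and −0.36 in the 2 classes.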

How the results depend on the processing

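Of 28 calls of the 10 genes in the class and activation comparisons, 0 reversed under any alternative and 8 were lost under at least 1; over 825 such values, 770 stayed on the same side of the threshold in the same direction. The counts of genes that passed were 4423 (microglia-like against monocyte/macrophage-like), 4785 (microglia-like against neutrophil-like), 3117 (monocyte/macrophage-like against neutrophil-like) and 1140 (B cell-like against T cell-like). Without shared barcodes the first 3 were 2764, 3134 and 1866, in cells thinned to 2000 UMIs all 4 were 2003, 2136, 1247 and 455, and with a fit of only its own 2 classes the third was 2058. Leaving out 1 library gave 2690 to 5142, 3155 to 5012, 1633 to 3325 and 609 to 1279, 93 to 107 for the 106 calls over all pairs, and 6 to 7 for the 6 niacin ratios, which were 3 in thinned cells. The 92 genes of the activation comparison became 173 with shared barcodes kept in every library, 42 without them, 158 at 10% mitochondrial UMIs, 162 with 2 marker UMIs, 167 with no filter on low counts and 5 to 82 leaving out 1 library. The mean share of microglia-like cells with *Mertk*, 70.9% at 2000 UMIs, was 54.4% at 1000, 87.9% at 4000 and 82.5% unthinned. With a pseudocount of 50 CPM, 19 of 30 similar genes were shared.

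Directions that turned belonged to differences that had not passed, and to niacin ratios, which have no test. Of the niacin ratios whose interval lay off 0, *Sirpa* in monocyte/macrophage-like cells turned. *Cd47* in microglia-like cells, whose interval included 0, was 0.031 without shared barcodes and 0.10 in thinned cells. Without shared barcodes *Cd47* (B against T cell-like) was 0.033 and *Sirpa* (niacin, monocyte/macrophage-like) 0.18; with a stricter margin *Sirpa* (B against T) was −0.74. In thinned cells *Siglecg* was −0.25, 0.13 and 0.38 in the 3 myeloid pairs, *Gas6* (monocyte/macrophage-like against neutrophil-like) 2.88 and *Sirpa* (niacin) 0.19. In the same pair, relative log expression and DESeq2 gave *Sirpa* −0.053 and −0.058 and *Cd47* −0.011 and −0.017, and leaving out 1 library gave *Cd47* −0.047 (without vehicle) to 0.36, *Mertk* −3.00 (without vehicle) to 1.86 and *Siglecg* −2.30 to 0.18 (without niacin replicate 1). Leaving out 1 library also gave *Siglecg* −1.40 to 0.54 (microglia-like against neutrophil-like, the last without niacin replicate 1) and *Mertk* −5.16 (without niacin replicate 2) to 1.02 (B against T). In the activation comparison *Pros1* was −0.20 with shared barcodes kept, −0.57 at 1000 UMIs, −0.43 with 2 marker UMIs, −0.06 with no filter and −0.053 (without niacin replicate 1) to 0.18 leaving out 1 library, and *Pirb* was −0.84 with shared barcodes kept and −0.055 with 2 marker UMIs. The cause was not tested.

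Without the library block the activation count was 4, and *Axl* lost the calls given above, as did *Lilrb4a* between B cell-like and T cell-like cells (adjusted p = 0.0991); no other of these 28 calls changed, and the calls in the remaining 11 pairs of classes were followed only as a count. No paired analysis was possible for niacin against vehicle, because there was 1 vehicle library and the replicate numbers are not known to mark pairs. Scaling to class totals, the split of monocyte/macrophage-like cells, the leave-outs of their subsets and 2 stricter rules on barcodes were chosen after seeing the data. Depth limits *Siglecg*, *Cd24a* and *Lilrb4a* in microglia-like cells and every gene in B cell-like cells of the vehicle library.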
